A study of Mus musculus with 11 samples.

Results

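Ribosome biogenesis factors are the proteins that make the ribosome without staying in it. The set described here has 45 genes, listed by symbol when earlier results of these data were known, and a gene was measured where a probe set of the array is annotated with that symbol alone. That held for 44 of the 45, out of 18193 genes on the arrays, and the exception was Mrto4, a factor of the 60S subunit whose only probe set also names 2 other genes. The 44 genes are covered by 92 probe sets, between 1 and 5 each, and where a gene had several their median was used.

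Ribosome synthesis begins in the nucleolus, where RNA polymerase I transcribes the ribosomal DNA into a long precursor. Small nucleolar ribonucleoproteins (snoRNPs) then guide methylation and pseudouridylation of the precursor, and large assemblies cleave and fold it into the 40S and 60S subunits. Lymphocytes that leave rest enlarge their nucleoli, and many genes of this pathway are known targets of the transcription factor MYC, which B cell receptor signals induce.

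The study measured total RNA of splenic B cells from female mice aged 6 weeks on 11 Affymetrix mouse expression arrays. NOD mice (NOD/ShiLtJ) are a strain that develops autoimmune diabetes, and NR4 mice (NOD.NOR-Chr4/DvsJ) are NOD mice that carry chromosome 4 DNA of the related NOR strain. The groups were NOD cells after 2 h with 10 µg/ml of goat F(ab')2 fragments against mouse IgM (2 arrays), NOD cells after 2 h in medium alone (3 arrays), NR4 cells after the same anti-IgM culture (3 arrays) and NR4 cells in medium alone (3 arrays). Cells were purified from lots of 7 to 8 pooled spleens, and both cultures of a strain were set up from the same lots, so an array stands for a pool and not for an animal. Anti-IgM cross-links the B cell receptor, and the NOD and NR4 comparison asks what the chromosome 4 segment does in B cells.

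All values below are log2 values centred on each probe set's median over the 11 arrays, so a value of 0 is that median and a difference of 1 is a doubling. Levels of different genes cannot be compared on this scale, and neither the presence of a transcript nor the labelled cell type could be checked by level. Marker genes were followed as differences instead. Of 9 measured B cell markers, 3 fell with anti-IgM, Cd22 by 0.99, Cd79b by 0.62 and Ms4a1 by 0.51, and the median over the list was -0.41. Of 10 T cell markers 1 rose, Cd5, which B cells can also express, and of 6 plasma cell markers 1 rose, Irf4. None of 7 NK cell, 6 monocyte and macrophage, 7 neutrophil or 4 erythroid markers passed the test. The first NOD anti-IgM array had the highest mean of the 11 arrays for the T cell markers (0.23) and for the monocyte and macrophage markers (0.22). The 3' minus 5' signal of the actin and Gapdh control probe sets is a measure of RNA integrity. It was 0.21 and 0.13 in NOD anti-IgM arrays, against -0.0069, -0.04 and -0.079 in NOD unstimulated arrays. In NR4 it was 0.96, 0.04 and 0.23 with anti-IgM, against -0.05, -0.07 and 0.29 without. The NOD groups did not overlap in this signal, the NR4 groups did, and its part in the responses was not tested.

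Anti-IgM gave small positive differences in most of the 44 measured members, and none passed the test. The members were listed with earlier results of these data known. Of 120 further genes of the pathway, described below, 49 had an averaged difference above 0, with a median of -0.02. Averaged over the strains, 35 of 44 members had a difference above 0, where 51.0% of all genes did, and the median over the members was 0.14 (1.10-fold) against 0.003 over all genes. The limma test with Benjamini-Hochberg adjustment over all genes called 1.56% of genes at an adjusted p under 0.05 and 0 of the 44 members, whose smallest adjusted p was 0.073. At an unadjusted p under 0.05 in the same limma fit, 10 members (22.7%) were higher, where 4.13% of all genes were, and 0 were lower, where 7.25% of all genes were. Those 10 were Gnl3, Nop58, Gnl2, Ncl, Noc2l, Polr1c, Nhp2, Tsr1, Rrp1b and Wdr43. The standard errors of the members ranged from 0.062 to 0.26, with a median of 0.092. For Gnl3 and Nop58 the call depended on the model. With the replicate number as a block, limma called both higher, Nop58 with a difference of 0.35 (SE 0.068, adjusted p 0.030) and Gnl3 with 0.39 (SE 0.079, adjusted p 0.036), where 1.25% of all genes were called higher. No other member passed either fit. In these arrays a higher share of cells that carry a transcript and more of it per cell cannot be told apart.

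**Figure D1:**
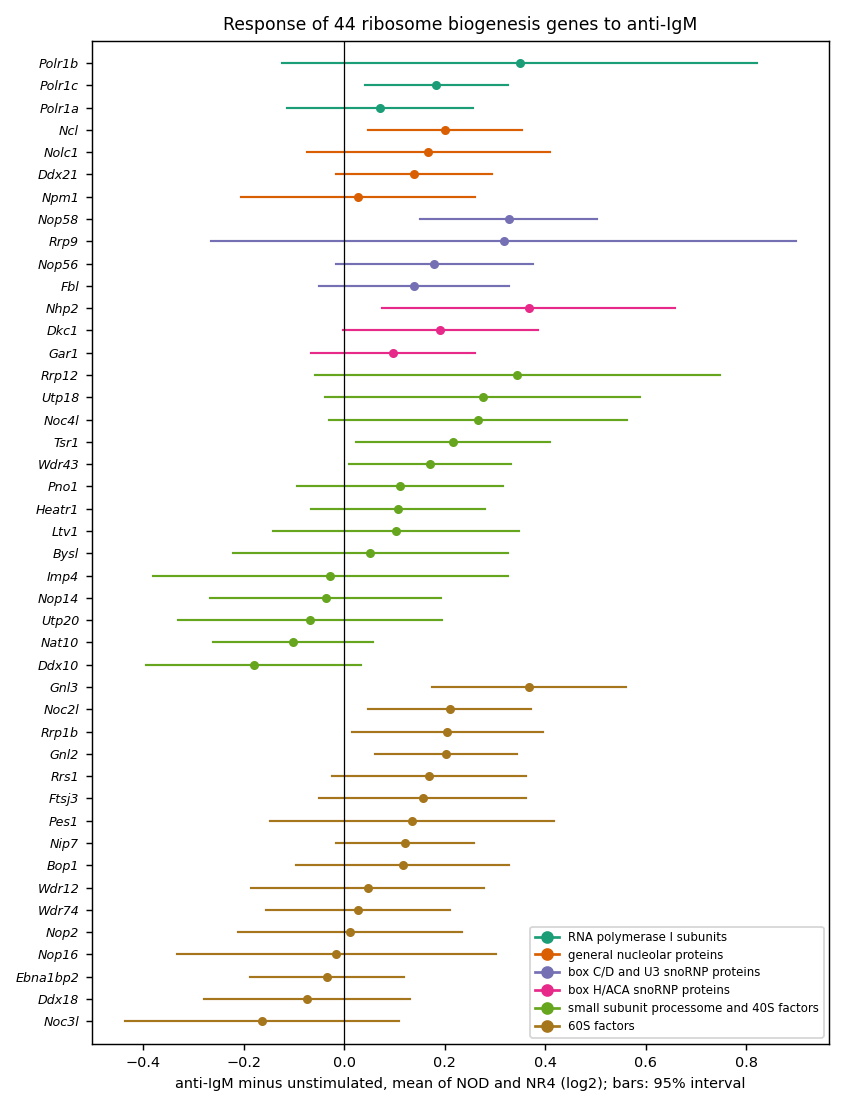
Difference between anti-IgM and unstimulated arrays on the log2 scale, averaged over NOD and NR4, for each of the 44 genes, ordered within their role. Points are limma estimates and bars are 95% confidence intervals, and the intervals of 10 genes lie wholly above 0 while none lies wholly below it.

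The promoters of 6 members are shown. Gnl3, Nop58 and Nhp2 had the largest responses among the members past the unadjusted threshold, and Polr1c separated by both strain and culture. Utp18 and Nop2 are shown because the stretch printed contains the canonical E-box bound by MYC, CACGTG. Their averaged responses were 0.28 (SE 0.14) and 0.01 (SE 0.10). Each sequence is the 120 bases before the RefSeq gene start in the GRCm38.p6 assembly, 5' to 3' on the strand of the gene. Capitals mark matches, on either strand, to CACGTG, to the variant E-box CACGCG, to the core CGGAAG of ETS factor sites or to the GC box GGGCGG, which reads CCGCCC on the other strand.
Gnl3 (chr14:31019132-31019251, minus strand): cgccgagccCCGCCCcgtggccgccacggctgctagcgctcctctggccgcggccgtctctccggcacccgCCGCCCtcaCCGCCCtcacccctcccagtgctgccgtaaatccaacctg
Nop58 (chr1:59684886-59685005, plus strand): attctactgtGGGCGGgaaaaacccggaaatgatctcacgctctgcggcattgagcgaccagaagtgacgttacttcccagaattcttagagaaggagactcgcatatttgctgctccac
Nhp2 (chr11:51619653-51619772, plus strand): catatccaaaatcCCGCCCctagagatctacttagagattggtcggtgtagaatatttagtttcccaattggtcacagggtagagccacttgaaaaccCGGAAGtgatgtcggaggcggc
Polr1c (chr17:46248046-46248165, minus strand): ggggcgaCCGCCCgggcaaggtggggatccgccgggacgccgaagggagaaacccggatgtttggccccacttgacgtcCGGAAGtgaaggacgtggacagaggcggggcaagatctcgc
Utp18 (chr11:93885767-93885886, minus strand): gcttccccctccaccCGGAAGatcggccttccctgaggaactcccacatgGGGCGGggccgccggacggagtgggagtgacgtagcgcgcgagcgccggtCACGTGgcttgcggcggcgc
Nop2 (chr6:125131763-125131882, plus strand): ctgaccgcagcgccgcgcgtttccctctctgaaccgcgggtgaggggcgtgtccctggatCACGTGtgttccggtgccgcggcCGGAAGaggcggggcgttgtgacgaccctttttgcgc

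The stretches of Gnl3 and Nop58 hold GC boxes alone among these motifs, and those of Nhp2 and Polr1c hold an ETS core and a GC box. Those of Utp18 and Nop2 hold the canonical E-box with an ETS core, and that of Utp18 also holds a GC box. Over the longer window from 250 bases before to 50 after the start, RefSeq promoters were matched for 38 of the measured members and for 14452 of all genes. CACGTG was present in 9 members (23.7%) and in 10.2% of all genes, CACGCG in 26.3% and 16.2%, CGGAAG in 57.9% and 27.1%, and GGGCGG in 78.9% and 57.3%. These 4 motifs overlap each other in 4 places in the members' windows. The 9 members with CACGTG were Wdr43, Utp20, Utp18, Imp4, Tsr1, Ltv1, Pno1, Pes1 and Nop2, and their median response averaged over the strains was 0.11, against 0.14 in the matched members without it. A match is a run of letters and does not show binding.

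Among the 3 members that encode subunits of RNA polymerase I, all differences with anti-IgM were above 0, and 1 passed the unadjusted threshold. Polr1c, a subunit shared by RNA polymerases I and III, stood at 0.24 and 0.11 in NOD anti-IgM arrays, against -0.09, -0.03 and 0.0046 in NOD unstimulated arrays, and at -0.0049, -0.03 and 0 in NR4 anti-IgM arrays, against -0.10, -0.11 and -0.26 in NR4 unstimulated arrays. Within each strain every anti-IgM array lay above every unstimulated array. The averaged difference was 0.18 (SE 0.064, n = 5 and 6 arrays, limma p 0.017, adjusted p 0.26), and the 2 probe sets gave 0.11 and 0.26. Polr1b, the second largest subunit, stood at 0.86 and -0.07 in NOD anti-IgM arrays, against 0, 0.26 and -0.15 in NOD unstimulated arrays, and at 0.94, 0.14 and -0.12 in NR4 anti-IgM arrays, against -0.03, -0.08 and 0.06 in NR4 unstimulated arrays. In each anti-IgM group 1 array was far above the others, the groups overlapped, and the difference was 0.35 (SE 0.21). Polr1a, the largest subunit, had a difference of 0.07 (SE 0.084).

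The 4 general nucleolar proteins had differences between 0.03 and 0.20. Ncl encodes nucleolin, an abundant RNA-binding protein of the nucleolus. It stood at 0.20 and 0.16 in NOD anti-IgM arrays, against -0.04, -0.07 and -0.02 in NOD unstimulated arrays, and at -0.06, 0.16 and 0.18 in NR4 anti-IgM arrays, against -0.10, -0.14 and 0 in NR4 unstimulated arrays. The NOD groups did not overlap, and in NR4 the first anti-IgM array fell inside the unstimulated range. The averaged difference of Ncl was 0.20 (SE 0.069, limma p 0.015, adjusted p 0.25). Nolc1, a chaperone of snoRNPs, had a difference of 0.17 (SE 0.11) and Ddx21, an RNA helicase of the nucleolus, one of 0.14 (SE 0.070). Npm1, which encodes the histone and ribosome chaperone nucleophosmin, had 0.03 (SE 0.11), the smallest of the 4.

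Box C/D snoRNPs guide ribose methylation, and the U3 particle of the same class is needed to cut the precursor for the 40S subunit. All 4 members that encode proteins of these particles had differences above 0, with a median of 0.25. Nop58, a core protein of the particle, stood at 0.27 and 0.18 in NOD anti-IgM arrays, against -0.13, -0.21 and 0 in NOD unstimulated arrays, and at 0.03, 0.13 and 0.36 in NR4 anti-IgM arrays, against -0.12, -0.19 and -0.12 in NR4 unstimulated arrays. Neither strain's groups overlapped. Its averaged difference was 0.33 (SE 0.080, 1.25-fold with a 95% interval of 1.11 to 1.42, limma p 0.0020, adjusted p 0.083), and the differences were 0.34 in NOD and 0.31 in NR4.

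Nop56, the partner of Nop58 in the particle, stood at 0.21 and 0.16 in NOD anti-IgM arrays, against 0, -0.11 and 0.09 in NOD unstimulated arrays, and at -0.15, 0.09 and 0.26 in NR4 anti-IgM arrays, against -0.14, -0.19 and 0.02 in NR4 unstimulated arrays. The NOD groups were apart and the NR4 groups overlapped through the first anti-IgM array. Its averaged difference was 0.18 (SE 0.088, limma p 0.069, adjusted p 0.51). Fbl, the methyltransferase fibrillarin, had 0.14 (SE 0.085). Rrp9, a protein of the U3 particle, had 0.32, but its standard error of 0.26 was the largest of the members, and its arrays ran from -0.47 to 0.78 within NR4 anti-IgM alone.

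Box H/ACA snoRNPs guide pseudouridylation, and all 3 members that encode proteins of these particles had differences above 0. Nhp2, a core protein of the particle, stood at 0.72 and 0.26 in NOD anti-IgM arrays, against 0.19, -0.11 and -0.13 in NOD unstimulated arrays, and at -0.20, -0.07 and 0.30 in NR4 anti-IgM arrays, against 0.01, -0.27 and -0.38 in NR4 unstimulated arrays. The NOD groups did not overlap, the NR4 groups did, and 0.72 on the first NOD anti-IgM array was far above every other array. Its averaged difference was 0.37 (SE 0.13, limma p 0.019, adjusted p 0.27), and its 2 probe sets gave 0.19 and 0.55.

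Dkc1, the pseudouridine synthase dyskerin, stood at 0.19 and -0.0012 in NOD anti-IgM arrays, against -0.13, 0 and 0.01 in NOD unstimulated arrays, and at 0.30, -0.06 and 0.16 in NR4 anti-IgM arrays, against -0.20, -0.17 and 0.02 in NR4 unstimulated arrays. The groups overlapped in both strains, and the averaged difference was 0.19 (SE 0.087, limma p 0.053, adjusted p 0.45). The 3 probe sets of Dkc1, fitted singly, gave 0.06, 0.10 and 0.19. Gar1, the third member that encodes a protein of these particles, had 0.10 (SE 0.074).

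The small subunit processome and later 40S factors were more mixed: 9 of 14 had a difference above 0, with a median of 0.10. Tsr1, a factor of late 40S maturation, stood at 0.21 and 0.15 in NOD anti-IgM arrays, against -0.10, -0.10 and 0.01 in NOD unstimulated arrays, and at -0.08, 0.01 and 0.20 in NR4 anti-IgM arrays, against -0.16, -0.33 and 0.05 in NR4 unstimulated arrays. Wdr43, a processome subunit, stood at 0.17 and 0.12 in NOD anti-IgM arrays, against -0.07, -0.09 and 0.07 in NOD unstimulated arrays, and at 0.07, -0.04 and 0.18 in NR4 anti-IgM arrays, against -0.06, -0.21 and -0.01 in NR4 unstimulated arrays. For both genes the NOD groups were apart and the NR4 groups overlapped, and the 2 probe sets of Wdr43 disagreed in size, at 0.05 and 0.29. The averaged differences were 0.22 for Tsr1 (SE 0.087, limma p 0.031, adjusted p 0.35) and 0.17 for Wdr43 (SE 0.072, limma p 0.040, adjusted p 0.39).

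At the low end of the same class were Ddx10, an RNA helicase, and Nat10, an RNA acetyltransferase. Ddx10 stood at 0.01 and -0.16 in NOD anti-IgM arrays, against -0.05, 0.01 and 0.28 in NOD unstimulated arrays, and at -0.38, -0.12 and 0.0050 in NR4 anti-IgM arrays, against 0.12, 0.06 and -0.05 in NR4 unstimulated arrays. Nat10 stood at -0.01 and -0.23 in NOD anti-IgM arrays, against -0.05, 0.0024 and -0.01 in NOD unstimulated arrays, and at 0.06, -0.11 and -0.0020 in NR4 anti-IgM arrays, against 0.19, 0.02 and 0.05 in NR4 unstimulated arrays. The groups of both genes overlapped in both strains, with averaged differences of -0.18 for Ddx10 (SE 0.096, limma p 0.090) and -0.10 for Nat10 (SE 0.072, limma p 0.18). The processome scaffold subunits Heatr1 and Utp20 had 0.11 (SE 0.078) and -0.07 (SE 0.12). Nop14, a processome factor, had -0.04 (SE 0.10), and the late 40S factors Ltv1, Pno1 and Bysl had 0.10, 0.11 and 0.05. Rrp12, a factor for export of the pre-ribosome, had 0.34, with a standard error of 0.18.

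Among the 60S factors 12 of 16 had a difference above 0, with a median of 0.12. Gnl3 encodes nucleostemin, a nucleolar GTP-binding protein, and had the largest averaged difference of the 44 members. It stood at 0.28 and 0.36 in NOD anti-IgM arrays, against -0.10, -0.08 and 0.05 in NOD unstimulated arrays, and at 0, 0.22 and 0.45 in NR4 anti-IgM arrays, against -0.11, -0.13 and -0.19 in NR4 unstimulated arrays. The groups did not overlap in either strain. The averaged difference was 0.37 (SE 0.087, 1.29-fold with a 95% interval of 1.13 to 1.48, limma p 0.0016, adjusted p 0.073), with 0.37 in each strain. Without the first NR4 anti-IgM array, the one with the high 3' minus 5' signal, it was 0.42 and passed limma's threshold (adjusted p 0.029). Gnl3 and Nop58 are measured by 1 probe set each.

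Gnl2, a GTP-binding protein related to Gnl3, stood at 0.16 and 0.12 in NOD anti-IgM arrays, against -0.03, -0.04 and -0.13 in NOD unstimulated arrays, and at 0.24, 0.07 and 0.12 in NR4 anti-IgM arrays, against -0.07, -0.12 and 0 in NR4 unstimulated arrays. Its groups did not overlap in either strain, and its averaged difference was 0.20 (SE 0.063, limma p 0.0095, adjusted p 0.20). Of its 3 probe sets, 2 gave 0.26 and 0.28 and the other gave 0.03. Noc2l, a protein of the pre-60S particle, stood at 0.15 and 0.07 in NOD anti-IgM arrays, against 0.10, -0.12 and -0.19 in NOD unstimulated arrays, and at 0.11, 0.15 and 0.17 in NR4 anti-IgM arrays, against -0.16, -0.11 and -0.01 in NR4 unstimulated arrays. For Noc2l the NR4 groups were apart and the NOD groups overlapped, and the averaged difference was 0.21 (SE 0.073, limma p 0.016, adjusted p 0.25).

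Rrp1b, a nucleolar protein of 60S assembly, stood at 0.10 and 0 in NOD anti-IgM arrays, against -0.21, 0 and 0.07 in NOD unstimulated arrays, and at 0.26, 0.07 and 0.09 in NR4 anti-IgM arrays, against 0, -0.30 and -0.21 in NR4 unstimulated arrays. Its NR4 groups were apart, its NOD groups overlapped, and the averaged difference was 0.21 (SE 0.086, limma p 0.037, adjusted p 0.38). Noc3l, a pre-60S factor, stood at 0.28 and 0 in NOD anti-IgM arrays, against 0.30, 0.19 and 0.06 in NOD unstimulated arrays, and at -0.54, -0.13 and -0.01 in NR4 anti-IgM arrays, against 0.32, -0.09 and -0.05 in NR4 unstimulated arrays. Its averaged difference was -0.16 (SE 0.12, limma p 0.21), its groups overlapped, and its 2 probe sets gave 0.009 and -0.34.

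The 3 proteins of the PeBoW complex, which processes precursor RNA of the 60S subunit, had 0.14 for Pes1 (SE 0.13), 0.12 for Bop1 (SE 0.095) and 0.05 for Wdr12 (SE 0.10). The RNA methyltransferases Ftsj3 and Nop2 had 0.16 (SE 0.093) and 0.01 (SE 0.10). Rrs1 and Nip7, further 60S assembly factors, had 0.17 (SE 0.087) and 0.12 (SE 0.062), and the helicase Ddx18 had -0.07 (SE 0.092).

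**Figure D2:**
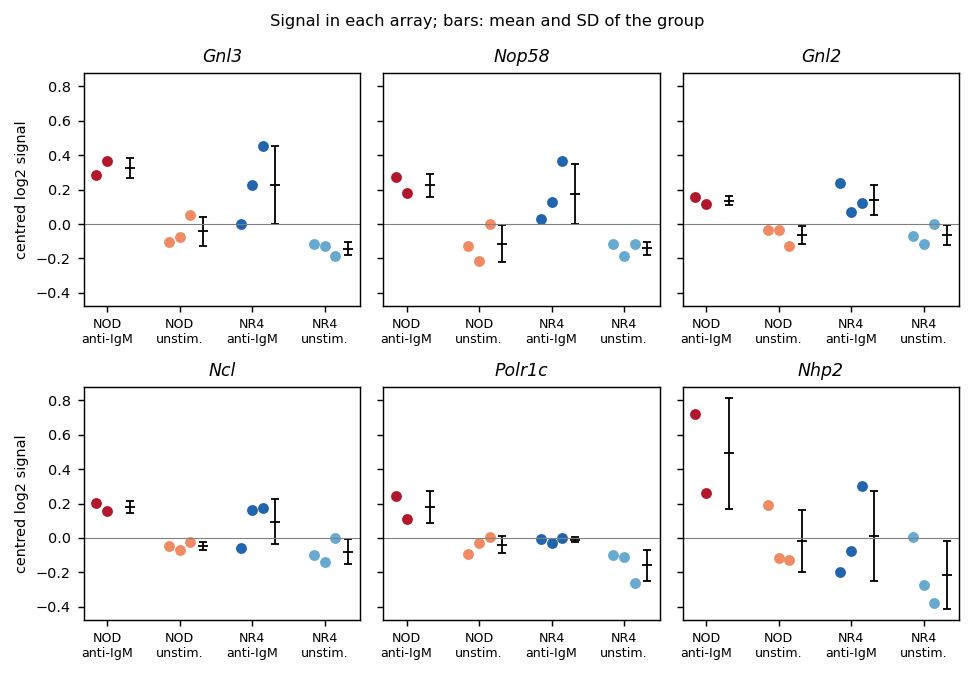
Centred log2 value of Gnl3, Nop58, Gnl2, Ncl, Polr1c and Nhp2 on each array, by group. Points are arrays in replicate order, and bars are the group mean with its SD. For Gnl3, Nop58, Gnl2 and Polr1c every anti-IgM array lies above every unstimulated array of the same strain.

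Counted by whether arrays overlapped, 4 members had every anti-IgM array above every unstimulated array in both strains, where 2.08% of all genes did, and they were Gnl2, Gnl3, Nop58 and Polr1c. In the opposite direction there were 0 members, where 3.56% of all genes had every anti-IgM array below every unstimulated array in both strains. Groups that were apart in only 1 strain were not counted over all genes. NOD has 2 anti-IgM arrays against 3 in NR4, so groups separate more easily in NOD, and no strain contrast is drawn from it. Of the 92 probe sets 74 had a difference above 0. Of the 31 members with more than 1 probe set, 19 had all of them above 0, 2 had all below 0, and 10 had mixed signs, among them Imp4, Nop16, Noc3l and Npm1.

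In NOD alone 36 members had a response above 0 (44.3% of all genes), with a median of 0.13, and in NR4 alone 32 did (53.9% of all genes), with a median of 0.15. The NR4 median was 0.08 without the third NR4 anti-IgM array. Both responses were above 0 in 30 members, where this held for 29.1% of all genes. None passed the limma test in either strain, where 0.115% of genes were called in NOD and 0.412% in NR4. At an unadjusted p under 0.05 by limma, 5 members were higher with anti-IgM in NOD (2.29% of all genes), namely Gnl3, Nhp2, Nop58, Polr1c and Utp18. In NR4 6 were higher (3.51% of all genes), namely Gnl2, Gnl3, Noc2l, Noc4l, Nop58 and Rrp1b. Responses below 0 in both strains were those of Utp20, Nop14, Ddx10, Nat10, Ddx18 and Noc3l.

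The difference between the strains' responses was tested as an interaction, NOD response minus NR4 response. Limma called 0 members and 0 of all genes, and at an unadjusted p under 0.05 it gave 0 members against 1.40% of all genes. With the replicate number as a block, 1 member, Nop16, passed the unadjusted threshold at 0.46 (SE 0.16, limma p 0.018, adjusted p 0.86). The share of all genes past it in the block fit was not counted. In the fit without the block the 3 members with the smallest p were Imp4, Utp18 and Noc4l. Imp4, a protein of the U3 particle, stood at 0.41 and 0 in NOD anti-IgM arrays, against 0.16, -0.06 and -0.15 in NOD unstimulated arrays, and at -0.23, -0.76 and 0.19 in NR4 anti-IgM arrays, against 0.10, 0 and -0.08 in NR4 unstimulated arrays. Utp18, a processome subunit, stood at 0.47 and 0.25 in NOD anti-IgM arrays, against -0.04, -0.01 and -0.35 in NOD unstimulated arrays, and at 0.23, -0.54 and 0.04 in NR4 anti-IgM arrays, against -0.24, -0.21 and 0.02 in NR4 unstimulated arrays. The NOD groups of Utp18 were apart, while its NR4 groups and all groups of Imp4 overlapped.

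The interaction was 0.50 for Imp4 (SE 0.32, limma p 0.15) and 0.44 for Utp18 (SE 0.28, limma p 0.15). Noc4l, a factor of 40S assembly, ran the other way. It stood at 0.18 and -0.08 in NOD anti-IgM arrays, against 0.07, -0.11 and -0.02 in NOD unstimulated arrays, and at 0.54, 0.03 and 0.23 in NR4 anti-IgM arrays, against -0.12, -0.55 and 0.10 in NR4 unstimulated arrays. Its groups overlapped in both strains, and the interaction was -0.39 (SE 0.27, limma p 0.18). For Gnl3 and Nop58 it was -0.0020 (SE 0.17, 95% interval -0.39 to 0.38) and 0.02 (SE 0.16, 95% interval -0.33 to 0.38), so the intervals include differences as large as the response itself.

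**Figure D3:**
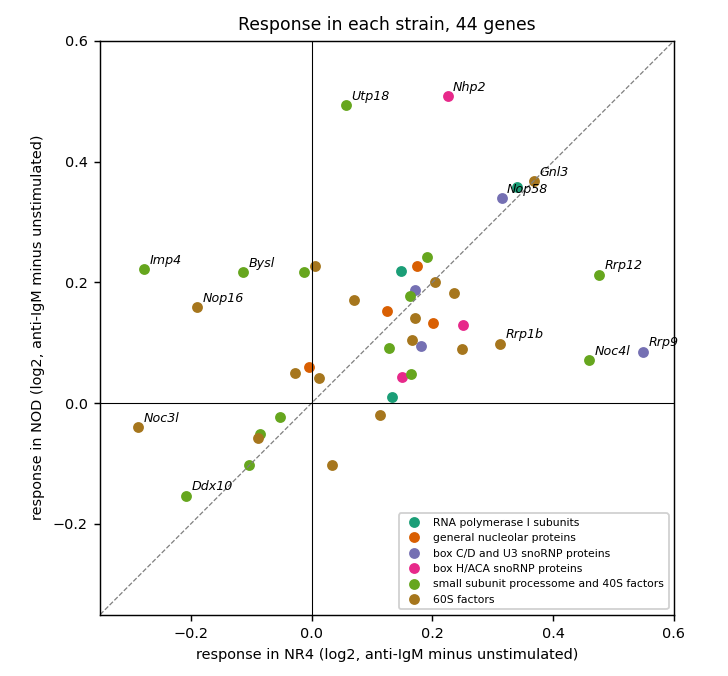
Response in NOD (vertical axis) against response in NR4 (horizontal axis), each as the log2 difference between anti-IgM and unstimulated arrays, for 44 genes coloured by role. The dashed line marks equal responses, 30 points lie in the upper right quadrant, and the responses rest on separate arrays of each strain.

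Between the strains, averaged over both cultures, 35 members were above 0 in NOD minus NR4, where 50.6% of all genes were, with a median of 0.06 against 0.001 over all genes. The median was 0.02 without the first NOD anti-IgM array and 0.11 without the second. Limma called 0 members, where it called 0.121% of all genes, and at an unadjusted p under 0.05 it gave 3 members higher in NOD (2.88% of all genes) and 0 lower (1.51% of all genes). Those 3 were Nhp2 at 0.34 (SE 0.13, limma p 0.027), Polr1c at 0.15 (SE 0.064, limma p 0.037) and Nop16 at 0.32 (SE 0.14, limma p 0.048), all with adjusted p near 1. With the replicate number as a block 5 passed the unadjusted threshold, none the adjusted one: Nop16 at 0.38 (SE 0.079, limma p 0.0011, adjusted p 0.18), Bysl at 0.27, Nhp2 at 0.34, Wdr74 at 0.18 and Polr1c at 0.15. The share of all genes past the unadjusted threshold in the block fit was not counted, so these 5 have no background beside them. Of the markers of other cells, 3 of 10 T cell markers were higher and 3 lower in NOD at an unadjusted limma p under 0.05, and 1 of 7 NK cell markers was higher. Among them Cd4 had -0.72 (SE 0.12, adjusted p 0.072), Cd8b1 had -0.64 (SE 0.14, adjusted p 0.27) and Gzma had 0.96 (SE 0.34, adjusted p 0.94). Over the T cell list 6 of 10 strain differences were above 0, with a range of -0.72 to 1.02 and a median of 0.13. The part of those cells in the strain differences was not tested. For Polr1c every NOD array lay above every NR4 array of the same culture, which held for 1.01% of all genes and for no other member.

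Nop16, a 60S factor, stood at 0.32 and 0.06 in NOD anti-IgM arrays, against -0.20, -0.72 and 0.0026 in NR4 anti-IgM arrays, and at 0.11, -0.13 and 0.12 in NOD unstimulated arrays, against -0.16, -0.34 and 0.15 in NR4 unstimulated arrays. Wdr74, a factor of early 60S maturation, stood at 0.32 and -0.03 in NOD anti-IgM arrays, against -0.14, 0 and 0.01 in NR4 anti-IgM arrays, and at 0.12, -0.0025 and 0.18 in NOD unstimulated arrays, against 0.02, -0.10 and -0.09 in NR4 unstimulated arrays. Nop16 was apart between strains with anti-IgM and overlapped without it, and Wdr74 overlapped in both. The averaged strain difference of Wdr74 was 0.17 (SE 0.082, limma p 0.063). With anti-IgM the responses of these genes were near 0, at -0.02 for Nop16 (SE 0.14) and 0.03 for Wdr74 (SE 0.082).

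The strains differ by design on chromosome 4, and the RefSeq gene table places 3 members on that chromosome. Gnl2, Noc2l and Ebna1bp2 had strain differences of -0.0039 (SE 0.063), -0.0086 (SE 0.073) and -0.02 (SE 0.069). Ebna1bp2, a pre-60S factor, stood at 0.04 and -0.18 in NOD anti-IgM arrays, against 0.0013, 0.01 and 0.06 in NR4 anti-IgM arrays, and at 0.08, -0.08 and 0.10 in NOD unstimulated arrays, against 0, 0 and -0.03 in NR4 unstimulated arrays. Its groups overlapped in both cultures, and whether the 3 genes lie inside the exchanged segment is not given in the labels.

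The arrays of a group did not carry the response evenly. The median over the 44 members was 0.19 and 0 in the NOD anti-IgM arrays, against 0.0010, -0.05 and 0.0093 in the NOD unstimulated arrays. In NR4 it was -0.0024, 0 and 0.11 with anti-IgM, against -0.06, -0.13 and -0.01 without. Members above 0 numbered 41 and 21 in NOD anti-IgM arrays, against 22, 7 and 24 in NOD unstimulated arrays, and 19, 21 and 34 in NR4 anti-IgM arrays, against 11, 4 and 18 in NR4 unstimulated arrays. The first NOD anti-IgM array and the third NR4 anti-IgM array stood highest and held the highest value of 14 and 11 members. The second NR4 unstimulated array held the lowest value of 16.

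Without the first NOD anti-IgM array the median NOD response was 0.03 with 25 of 44 members above 0, against 0.13 and 36 with all arrays. Without the second it was 0.22 with 42 above 0. The first NOD unstimulated array had the next highest T cell marker mean, 0.18, with a member median of 0.0010. The highest T cell and monocyte marker means were on the first NOD anti-IgM array, and the part of those cells in the result was not tested. Averaged over the strains, the median was 0.08 without it, with 33 members above 0 and 4 at an unadjusted limma p under 0.05. The first NR4 anti-IgM array held the lowest value of 9 members, namely Npm1, Utp20, Nop14, Ddx10, Ltv1, Wdr74, Nop2, Ddx18 and Noc3l. Without that array, whose RNA integrity signal stood apart, the averaged median was 0.14 with 37 members above 0.

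**Figure D4:**
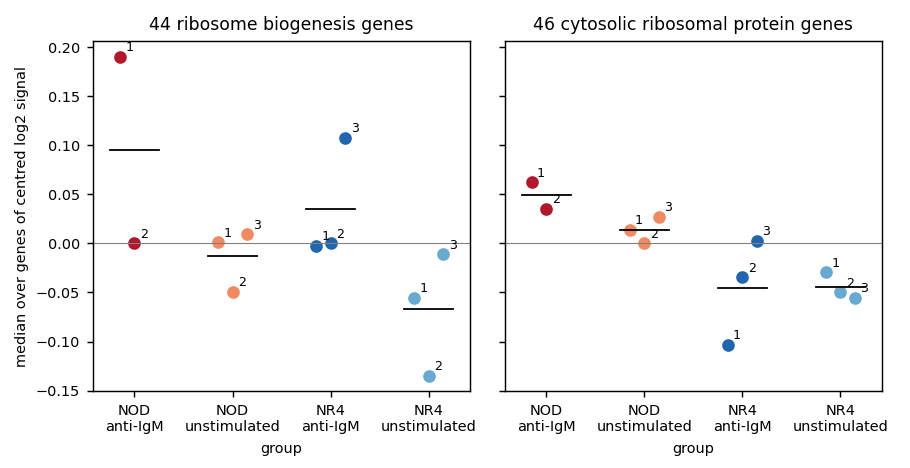
Median of the 44 genes' centred log2 values on each of the 11 arrays, by group, with replicate numbers beside the points and a bar at the group mean. The 2 NOD anti-IgM arrays lie at 0.19 and 0, and the second NR4 unstimulated array is lowest at -0.13.

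Array to array, the members' values were correlated. The mean pairwise Pearson correlation over the 11 arrays was 0.27 for the members and 0.029 over all genes, and 0.22 against 0.041 after the group means were taken off. With the group means left in, it was 0.26 for the 46 cytosolic ribosomal protein genes, so it was not particular to the members. Each array enters every one of these correlations, so RNA quality and labelling are shared by all points. The genes closest to the median of the other members over the 11 arrays were Ftsj3 (r 0.88), Nip7 (0.87), Tsr1 (0.85), Wdr43 (0.84) and Fbl (0.84), while Nat10 (-0.18), Ddx10 (-0.06) and Npm1 (0.07) lay lowest. The SD within groups was 0.057 to 0.50 over the members with a median of 0.15, against a median of 0.18 over all genes. Only 6 members exceeded 0.25.

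**Figure D5:**
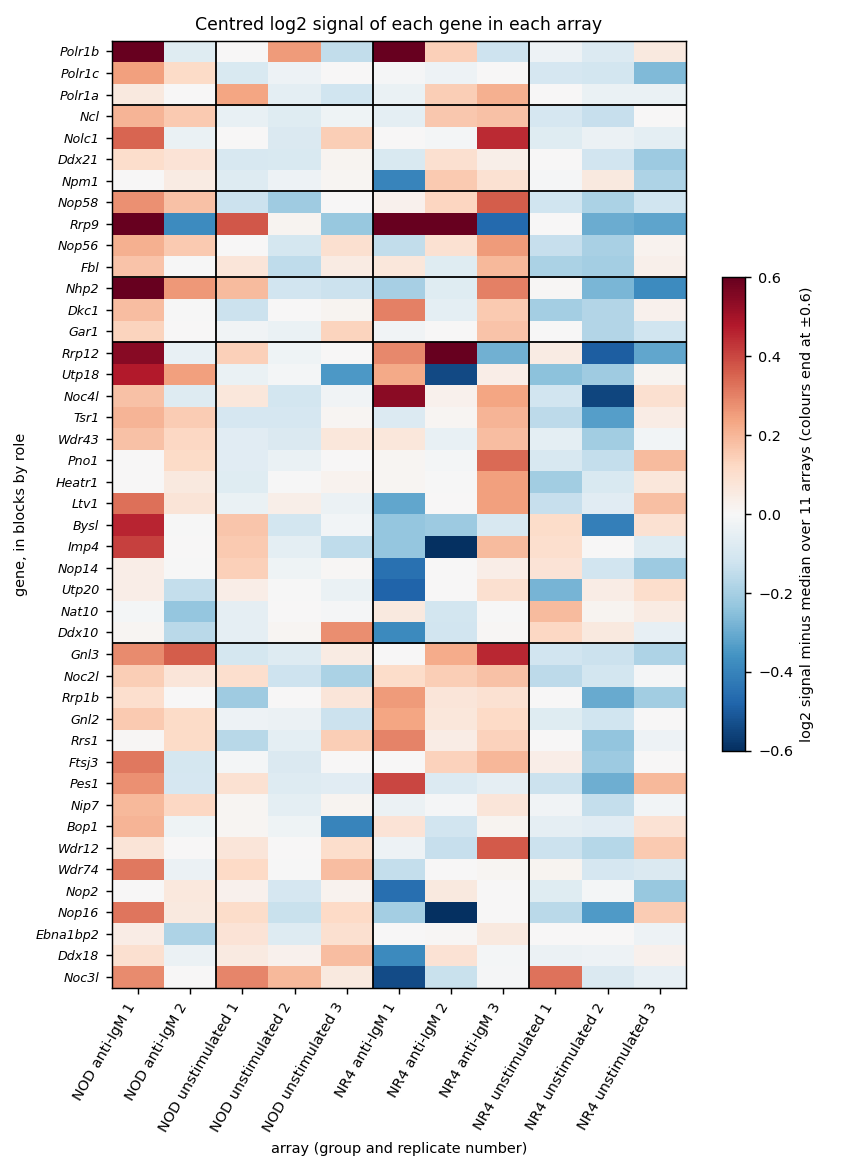
Centred log2 values of the 44 genes (rows, by role) on the 11 arrays (columns, by group), in a colour scale from low to high around each gene's median. The first NOD anti-IgM array is above 0 in 41 of 44 rows, and the second NR4 unstimulated array is above 0 in 4.

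Further genes of the pathway had a median response near 0. Of 134 further genes for the same steps 120 were measured, 49 had a response above 0 averaged over the strains, the median was -0.02, and limma called 0. At an unadjusted p under 0.05 by limma 15 were higher and 7 lower, where 4.13% of all genes were higher and 7.25% lower. The medians were -0.03 over 15 genes of RNA polymerase I transcription, -0.01 over 36 small subunit genes, 0.0043 over 45 of the 60S subunit, -0.01 over 9 for snoRNP assembly and -0.05 over 15 for rRNA decay and trimming. Among them Naf1, an assembly factor of H/ACA particles, had 0.33 (SE 0.070, adjusted p 0.052), and Eif6, which keeps new 60S subunits from joining 40S, had 0.38 (SE 0.087, adjusted p 0.064). The exosome nuclease Dis3 had 0.38 (SE 0.093) and the processome gene Nol10 had 0.34 (SE 0.086). In the other direction Taf1b, a subunit of the selectivity factor of RNA polymerase I, had -0.66 (SE 0.17, adjusted p 0.11) and Nol7 had -0.26 (SE 0.061, adjusted p 0.074). The strain difference was above 0 in 96 of the 120, where it was in 50.6% of all genes, with a median of 0.07.

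The 19 measured RNA polymerase III genes had a median response of -0.02, and Polr3d, a subunit of that enzyme, had 0.36 (SE 0.083, adjusted p 0.073). The 46 cytosolic ribosomal protein genes had a median response of 0.03 with 29 above 0, and a median strain difference of 0.09 with 43 above 0. Of 10 MYC network genes limma called 1. Myc itself rose by 1.46 (SE 0.18, adjusted p 0.0049). It stood at 1.34 and 1.34 in NOD anti-IgM arrays, against 0, -0.26 and -0.60 in NOD unstimulated arrays, and at 1.09, 0.30 and 1.01 in NR4 anti-IgM arrays, against -0.51, -0.86 and -0.13 in NR4 unstimulated arrays. For Myc every anti-IgM array lay above every unstimulated array.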

How the data were processed

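Biotin-labelled RNA from 11 B cell cultures was hybridized to 1-colour arrays, per the labels. The deposited log2 values came from RMA according to the submitters' processing notes; neither the log base nor the centring is stated there, and the base was taken as 2 because RMA reports on that scale. All 45101 deposited probe sets have a median of 0 over the arrays. Software versions and genome build: not given in the sources used here.

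Probe set names came from GEO's platform annotation. A gene's value is the median of its probe sets with that symbol alone. limma 3.58.1 in R 4.3.3 was fitted to 4 group means over 18193 genes with 7 residual degrees of freedom, and p-values are two-sided and Benjamini-Hochberg adjusted. The script was tested on simulated data. No filter on dim probe sets was possible on centred values.

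Members and gene lists were chosen with earlier results of these data known. Values in every array are given for members past the threshold, the 12 with the smallest p and the 3 lowest in the averaged response, the 4 with the smallest p between strains, the 3 with the smallest p in the interaction, and members on chromosome 4. Values in every array were also given for Polr1b, outside that rule, after they were seen. Lists of further pathway genes and of markers of B, T, NK, monocyte, neutrophil, plasma and erythroid cells were counted.

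Replicate numbers come from the sample titles. Cultures of a strain share lots, but the labels do not say that a number marks a lot. Deviations of the 2 same-numbered NOD pairs correlated at 0.63 and 0.12, and those of the NR4 pairs at 0.33, 0.22 and 0.47. Across strains same-numbered arrays correlated at 0.59, 0.21 and 0.51 without stimulation and at 0.37 and -0.12 with anti-IgM. Different-numbered pairs ran from -0.63 to 0.58 within NOD and from -0.53 to 0.18 within NR4. The second NOD anti-IgM array correlated at 0.58 with the third NOD unstimulated array and at 0.50 with the third NR4 anti-IgM array. Both exceeded its same-numbered values of 0.12 and -0.12. The deviations of the 2 NOD anti-IgM arrays mirror each other, so their correlations are not independent. The deposited labels do not explain these correlations, so the fit with the number as a block is also given for the calls it changes at the adjusted threshold. Changes at the unadjusted threshold are described in the closing section. Alternatives were quantile normalization, another probe set per gene, strain and replicate number together as a random block, which stands for a lot only if a number marks one, and leaving out each array. The number of arrays limits the precision.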

Additional observations from a re-analysis of the deposited data

How the results depend on the processing

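The averaged response was recomputed under quantile normalization, with the lowest-numbered probe set per gene, without _s_at and _x_at probe sets, with a replicate block, with strain and replicate number together as a random block (a lot only if a number marks one), and without each array in turn. The number of members called was 2, Gnl3 and Nop58, with the replicate block and 2, the same genes, with the random block. Without 1 array at a time it ranged from 0 to 1, the call being Gnl3 without the first NR4 anti-IgM array. The replicate block changed no other call at the adjusted threshold. At the unadjusted one it gave 14 members higher in the averaged response, against 10 without the block. It gave 1 member in the interaction (Nop16) and 5 between strains. In the NOD response Tsr1, Ncl and Wdr43 passed the unadjusted threshold with the block and not without it. The share of all genes was not counted for any of these. Counts at an unadjusted p and above 0 were added after seeing the data. Without _s_at and _x_at probe sets 42 members remained, and 7 were higher at an unadjusted limma p under 0.05. In that setting Nhp2 was 0.19, Polr1c 0.11, Nop56 0.11, Dkc1 0.08 and Ncl 0.17, all lower than with all probe sets, while Wdr43 was higher at 0.29. The number higher at an unadjusted p was 4 with the lowest-numbered probe set and 16 with the random block, against 10, and 4 to 13 without 1 array. The median member response in NOD ranged from 0.0313 to 0.218 without 1 array, lowest without the first NOD anti-IgM array, and the median interaction from -0.0618 to 0.0764. Without 1 array the median in NR4 ranged from 0.0791, without the third NR4 anti-IgM array, to 0.172, and the median strain difference from 0.0204 to 0.107, the ends lacking the first and the second NOD anti-IgM array. The averaged median stayed between 0.08 and 0.17 under all these settings, and 32 to 38 members were above 0. Differences near 0 changed sign: Nop16 was 0.0839 with quantile normalization, 0.11 with the lowest-numbered probe set, 0.0398 with the replicate block and -0.0928 to 0.0868 without 1 array. Imp4 was 0.031 with quantile normalization, 0.34 with the lowest-numbered probe set and -0.14 to 0.10 without 1 array. With the lowest-numbered probe set Noc3l was 0.0090, Gnl2 0.028, Wdr43 0.05, Dkc1 0.061, Nhp2 0.19, Polr1c 0.11, Nop56 0.11, Noc4l 0.15 and Ddx10 -0.27. Without 1 array Wdr74 ranged from -0.0613 to 0.115 and Ebna1bp2 from -0.0918 to 0.0225. The cause of these changes was not tested. Dim probe sets could not be filtered, since centred values hold no signal over background.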
